A study of Mus musculus with 3 samples.

Results

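MicroRNA genes encode the hairpins from which mature microRNAs are cut, and they are described here by the H3K27ac peaks found beside them in early thymocytes. All genes of biotype miRNA on chromosomes 1 to 19 and X in the mm10 RefSeq gene table were taken, each with 1 kb on either side of the gene. The rule found 1228 microRNA genes among 49550 genes of all kinds on those chromosomes. Genes less than 10 kb apart were joined, which gave 943 loci. The data were peak lists from 2 replicate immunoprecipitations of chromatin acetylated at lysine 27 of histone H3, a mark of active promoters and enhancers. The cells were wild-type C57BL/6J thymocytes sorted as negative for CD4 and CD8, positive for CD25 and negative or positive for CD44, from mice 5 to 7 weeks old. There was 1 group, with no mutant, treatment or later stage to set against it, and 1 input library was not analysed here. The labels do not say whether the replicates came from separate mice or from a pool, so the spread between them may be technical.

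A microRNA is transcribed as part of a longer primary transcript, either from a promoter of its own or as part of a host gene, and the hairpin is cut out by Drosha and then by Dicer. The short mature strand is loaded into an Argonaute protein, and its seed, bases 2 to 8, pairs with target messages and lowers their output. In the thymus, microRNAs of the miR-17, miR-181, miR-142 and miR-150 families are known to set survival, signalling strength and the passage between stages. H3K27ac lies beside the promoter of the primary transcript, which can stand many kilobases from the hairpin, so a mark at the hairpin and a mark at the transcript's start are separate measurements.

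The mature strands from the acetylated loci that the results turn on are shown here, since they name the regulators whose genes lay within 1 kb of the mark. Here and throughout, acetylated means that a peak of each replicate lay within 1 kb of the gene. Sequences are from RefSeq on GRCm38.p6, 5′ to 3′, with the seed in capitals. The microRNA table held a mature sequence for 45 of the 50 acetylated genes, and their 67 mature strands carried 67 distinct seeds. The Mir142 gene and Mir142b lie on opposite strands of the same stretch of chromosome 11, and so their products differ in seed.
mmu-miR-142a-5p: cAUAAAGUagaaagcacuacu
mmu-miR-142a-3p: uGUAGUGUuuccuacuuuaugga
mmu-miR-142b: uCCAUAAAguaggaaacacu
The cluster on chromosome 8 gives 3 microRNAs from the plus strand and miR-3074 from the minus strand.
mmu-miR-23a-3p: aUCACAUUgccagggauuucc
mmu-miR-27a-3p: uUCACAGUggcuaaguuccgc
mmu-miR-24-3p: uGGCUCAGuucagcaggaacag
mmu-miR-3074-5p: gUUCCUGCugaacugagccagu
The remaining strands come from loci with 1 microRNA gene each, and miR-155, whose gene had a peak of replicate 1 only, is shown for comparison.
mmu-miR-21a-5p: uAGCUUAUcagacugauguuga
mmu-let-7i-5p: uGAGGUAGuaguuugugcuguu
mmu-miR-7671-5p: aGGCUCCGcucuggcuagcuucc
mmu-miR-8119: gAGGAGAGggagcuaggguc
mmu-miR-101c: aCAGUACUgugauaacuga
mmu-miR-155-5p: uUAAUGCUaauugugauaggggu

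Peaks of replicate 1 numbered 12228 and those of replicate 2 numbered 9429 on these chromosomes. The peaks were mostly weak: their median fold enrichment, the authors' own value for a peak's signal over background, was 2.18 in replicate 1 and 2.31 in replicate 2, and 27.3% and 41.1% of them had a q of at most 0.05. Among the cell-type markers, 5 of 12 double-negative thymocyte genes were acetylated at a gene end (Tcf7, Dntt, Cd3g, Cd3d and Cd3e), and Ptcra, Il2ra, Rag1, Rag2, Bcl11b, Gata3 and Notch1 were not. None of 4 genes each for B cells, myeloid cells, erythroid cells and thymic stroma was acetylated, and 1 of 4 NK-cell genes, Nkg7, was.

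Of the 1228 microRNA genes, 50 (4.07%) had a peak of each replicate within 1 kb, in 44 of the 943 loci (4.67%). With 1 group there is nothing to test these counts against, so they are set beside the same counts over other genes. The same rule at gene ends called 9.25% of all genes, 17% of protein-coding genes, 7.84% of tRNA genes, 4.84% of lncRNA genes, 3.37% of snoRNA and snRNA genes and 0.581% of pseudogenes. By these shares microRNA genes stood below the table as a whole and between small nuclear or nucleolar RNA genes and lncRNA genes. The shares are not like for like, because a long gene was searched in separate windows at both ends and a hairpin in a single window. Replicate 1 placed a peak at 77 microRNA genes and replicate 2 at 68; 27 had a peak of replicate 1 only, 18 of replicate 2 only and 1133 of neither. These genes drew on 71 peaks of replicate 1 (0.581% of its list) and 62 of replicate 2 (0.658%). At 48 of the 50 genes the peaks of both replicates overlapped each other inside the window, Mir21a and Mir1934 being the exceptions, and at 25 the gene itself lay under a peak of each. The distance rule separated genes by a few bases: Mir6975 and Mir688 entered with their farther peak at 984 and 992 bp, and Mir5100 stayed out at 1001 bp.

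The class of place in the genome divided these genes unevenly. Of 150 microRNA genes within 1 kb of a protein-coding gene end, 27 (18%) were acetylated, against 17% of protein-coding genes themselves. Of 840 inside a host gene and away from coding ends, 13 (1.55%) were acetylated. Of 238 between genes, 10 (4.2%) were, and these 10 lay in 6 of 157 loci. The share at coding ends was near that of coding genes, but the shares are not like for like. A coding gene could count through either of its ends, and many of these microRNA genes stood at an end with no start near by.

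**Figure D1:**
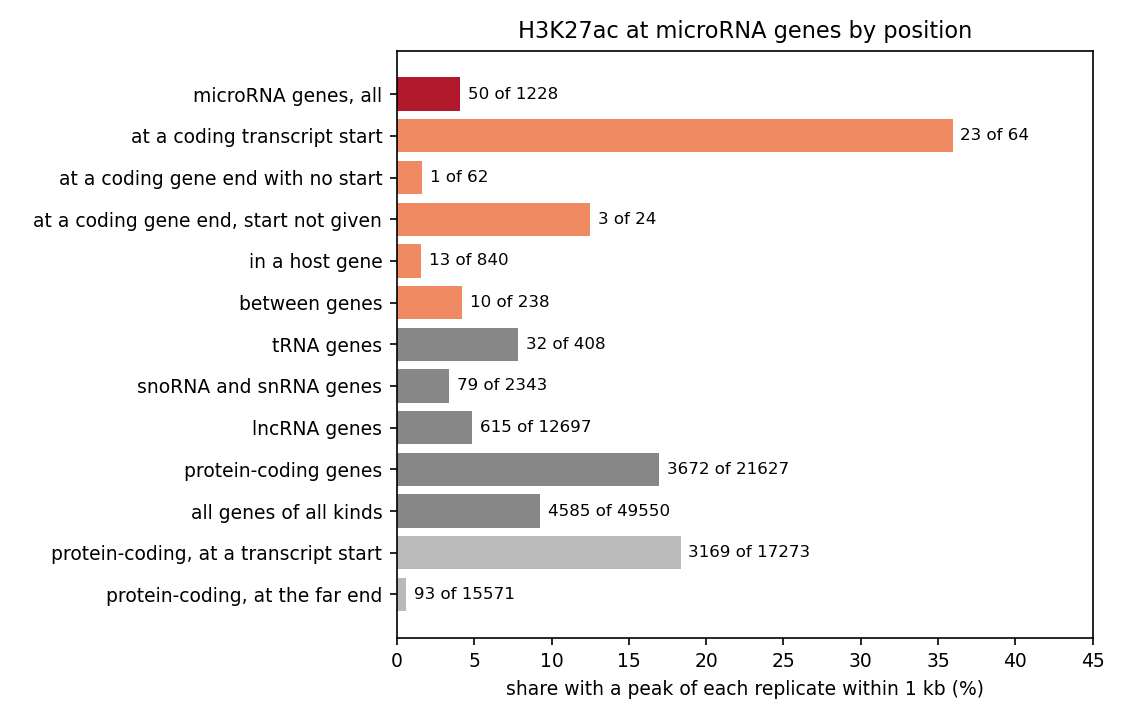
Share of genes with a peak of each replicate within 1 kb (x axis, %), for all microRNA genes (red), microRNA genes by position (orange) and other kinds of gene (grey), with counts printed beside the bars. MicroRNA genes at a coding transcript start have the longest bar, 23 of 64, and those at a coding gene end with no start have 1 of 62.

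The 27 genes at coding ends were split by whether that end was a transcript start, a split added after the peak lists had been examined. A start within 1 kb was annotated for 64 of the 150, of which 23 (35.9%) were acetylated; 62 lay at a coding end with no start within 1 kb, of which 1 (1.61%), Mir21a, was acetylated; for 24 no coding start was in the promoter table, of which 3 (12.5%) were acetylated. Protein-coding genes divided in the same direction: 18.3% had a peak of each replicate at a transcript start, against 0.597% at the far end. At a start the share was thus higher for these microRNA genes, 35.9% against 18.3%. Orientation could be read for the 64. Among microRNA genes upstream of the start, 7 of 12 on the same strand (58.3%) and 5 of 10 on the opposite strand (50%) were acetylated. Among those downstream of the start, 11 of 38 on the same strand (28.9%) and 0 of 4 on the opposite strand were. The counts are small, and some of the 23 acetylated genes share their peaks with each other. Mir2861 and Mir3960 at Cdk9 share theirs, and both count upstream on the same strand. Mir219a-1 and Mir219c at Ring1 also share theirs, and count once on each strand. Each microRNA gene at a start also shares its peaks with the coding promoter, so acetylation of the one and of the other cannot be told apart.

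Among the coding-end genes, the 6 loci with the most bases under peaks of both replicates were these; coordinates here and elsewhere are on mm10, counted from 1. Mir12191 at Fam53c had 1107 bp of its window under both, with fold 2.27 in replicate 1 and 3.39 in replicate 2. Mir207 at Dnaja1, a gene for an Hsp40 co-chaperone, had 1025 bp and folds of 1.99 and 2.08. Gm38670, which encodes miR-9769 inside Hspb6 and 326 bp downstream of its start, had 930 bp and folds of 2.43 and 2.70. These 3 loci had broad shared coverage at folds close to the list medians, except Mir12191 in replicate 2. Mir1938 in Ifrd1 had 927 bp and folds of 2.08 and 2.37. Mir2861 and Mir3960 at Cdk9, the kinase of the elongation factor P-TEFb, shared 737 bp and folds of 2.95 and 2.11. Mir8092 in Zfp518a, a zinc finger gene, had 721 bp, with fold 2.29 in replicate 1 and 5.78 in replicate 2. Mir8092 had the most unequal pair of folds of these loci, and its −log10 q was 0.918 in replicate 1 and 7.31 in replicate 2. Over the 27 genes the median fold was 2.08 in replicate 1 and 2.38 in replicate 2, with ranges of 1.59 to 3.21 and 1.48 to 5.78.

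At Cdk9 and at Gspt1, a translation release factor gene, the microRNA hairpins lie inside the coding promoter window itself, and those windows are shown to place the hairpins in them. Each runs from 250 bases before to 50 bases after the transcript start, on the minus strand (RefSeq, GRCm38.p6), with the hairpins in capitals. In the Cdk9 window the first capital run is Mir3960 and the next is Mir2861; in the Gspt1 window the run is Mir1945.
Cdk9, chr2:32712735-32713034: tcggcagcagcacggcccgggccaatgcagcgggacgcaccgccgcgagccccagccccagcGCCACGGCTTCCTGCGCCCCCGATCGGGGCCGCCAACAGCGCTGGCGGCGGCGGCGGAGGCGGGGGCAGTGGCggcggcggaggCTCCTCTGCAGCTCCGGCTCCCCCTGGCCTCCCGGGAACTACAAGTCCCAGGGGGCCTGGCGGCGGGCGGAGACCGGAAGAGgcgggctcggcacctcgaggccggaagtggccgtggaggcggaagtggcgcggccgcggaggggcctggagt
Gspt1, chr16:11254276-11254575: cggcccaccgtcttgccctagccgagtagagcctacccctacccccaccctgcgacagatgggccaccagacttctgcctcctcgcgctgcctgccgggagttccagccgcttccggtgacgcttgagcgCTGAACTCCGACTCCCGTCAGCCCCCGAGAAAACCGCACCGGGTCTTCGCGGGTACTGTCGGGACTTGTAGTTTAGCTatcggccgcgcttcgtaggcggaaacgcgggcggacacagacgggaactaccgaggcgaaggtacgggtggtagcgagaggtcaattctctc
The Cdk9 window held 39 CpG dinucleotides, more than 94.5% of 17273 coding promoters of the same length, and the Gspt1 window held 32, more than 87.9% of them; the median was 14. At Cdk9 both hairpins lay under a peak of each replicate. At Gspt1 the hairpin did not: Mir1945 had peaks 135 bp away in replicate 1 (fold 1.93, −log10 q 1.79) and 55 bp away in replicate 2 (fold 2.62, −log10 q 1.63).

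The base composition of the hairpins differed with class. Median GC content was 59.8% in 44 acetylated hairpins with a sequence, against 51.3% in 961 hairpins that were not acetylated. At coding ends all 24 acetylated hairpins held a CpG, against 78.3% of 106 others, with a median of 7.08 CpG per 100 bases in the acetylated and 2.89 in the others. In host genes the order of CpG content was the other way: 5 of 11 acetylated hairpins (45.5%) held a CpG, against 66.0% of 653 others. The host-gene hairpins had a median GC content of 54.1% where acetylated and 51.8% where not. These are descriptions of the hairpins and no more, since promoter position, base composition and acetylation cannot be told apart here.

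MicroRNA genes inside host genes, the most numerous class, were seldom acetylated at the hairpin. Inside protein-coding hosts 12 of 711 (1.69%) were, and inside other hosts 1 of 129 (0.775%), which was Mir6516 in the lncRNA gene Snhg20. The hosts of these genes were counted at their own ends: 123 of 571 coding hosts (21.5%) were acetylated, against 17% of all coding genes, and 9 of 105 lncRNA hosts (8.57%), against 4.84% of all lncRNA genes. Over the hosts of microRNA genes of any class, those at coding ends included, the counts were 150 of 674 coding hosts (22.3%) and 10 of 110 lncRNA hosts (9.09%). Of the 711 microRNA genes in coding hosts, 134 (18.8%) had a host with acetylated ends, and 5 of these (3.73%) were also acetylated at the hairpin. Of the 577 others, 7 (1.21%) were.

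Hairpins inside hosts were also counted by their distance to a transcript start. Of 35 microRNA genes of this class within 1 kb of any annotated transcript start, 5 (14.3%) were acetylated, against 7 of 783 (0.894%) farther away. Between genes the same split went the other way, with 0 of 14 near a start and 10 of 216 (4.63%) farther away. These splits too were added after the peak lists had been examined. They leave out chromosome 18, for which the promoter table had no entry. Genes elsewhere can also lack a start there, as did Trps1, the host of Mir1907, which was counted as farther away. Mir5620 lay antisense in Clcn4, a chloride and proton exchanger gene, 55 bp from a Clcn4 start, with 1784 bp of its window under both replicates and folds of 2.06 and 2.06. Mir1894 lay 693 bp from a start of Ppp1r10, a regulatory subunit of protein phosphatase 1, with 1277 bp and folds of 2.09 and 2.64. Mir8104 lay 553 bp from a start of the phosphatase gene Ppm1h, with 504 bp and folds of 1.82 and 4.34. Each of these 3 hairpins lay under a peak of each replicate, with the higher fold in replicate 2 at Mir1894 and Mir8104. Mir1904 in Pde4d, a cAMP phosphodiesterase, stood 103 kb from the nearest start, with 869 bp and folds of 1.74 and 2.11. Mir7655 in Mllt10, a partner of the histone methyltransferase Dot1l, stood 2.12 kb from a start, with 646 bp and folds of 1.77 and 2.07. Mir1893 in Epc1 on chromosome 18 had 861 bp and folds of 2.17 and 2.23.

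Mir8119 lies in Lck, the kinase that starts signalling from the pre-T-cell and T-cell receptors, and was singled out after its values were seen. It lies at chr4:129557683-129557811, 561 bp from the inner of 2 Lck starts in the promoter table. A replicate 1 peak at chr4:129556971-129559284 (fold 2.08, −log10 q 0.693) and a replicate 2 peak at chr4:129557544-129557859 (fold 3.24, −log10 q 1.98) both covered the hairpin. Neither annotated end of Lck had a peak of each replicate within 1 kb, so the mark at Lck was seen through the microRNA gene and not through the gene ends.

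Between genes, away from coding ends and hosts, 10 microRNA genes in 6 loci were acetylated, and their folds spread more widely than in the other classes. Counted per gene, their median fold was 3.27 in replicate 1 and 2.13 in replicate 2, with ranges of 1.43 to 5.62 and 1.23 to 6.84. The peaks of the Mir23a cluster enter once for each of its genes, so these medians lean on that locus. All 10 genes are described in the next paragraphs, 6 of them in the loci of Mir142 and Mir23a.

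Mir142 and Mir142b, a locus known for activity across blood lineages and little elsewhere, had the highest fold of any acetylated microRNA gene in replicate 2. The Mir142 gene lies at chr11:87756864-87756927, 1.27 kb from an end of the coding gene Tspoap1. The replicate 1 peak at chr11:87756575-87757166 covered it with fold 2.40 and −log10 q 1.35. The replicate 2 peak at chr11:87756182-87756775 ended 89 bp upstream, with fold 6.84 and −log10 q 11.3, and ranked 56 by fold among its 9429 peaks. The 2 peaks shared 201 bp, just upstream of the hairpin; in replicate 1 the same locus ranked 3896 of 12228. Both replicates therefore called the locus, with very unequal height.

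The Mir23a cluster of Mir23a, Mir27a, Mir24-2 and Mir3074-2 had the opposite imbalance. Members of this cluster are known in lymphocytes for restraint of effector differentiation. The replicate 1 peak at chr8:84207952-84209152 covered all 4 genes, with fold 4.13 and −log10 q 4.11. Replicate 2 had 2 smaller peaks on either side, at chr8:84208056-84208309, 209 bp upstream of Mir23a (fold 2.13, −log10 q 0.782), and at chr8:84209396-84210367, 475 bp downstream of Mir24-2 (fold 1.89, −log10 q 0.805). A further pair stood upstream of Mir23a, 4.15 kb away in replicate 1 (fold 5.00) and 4.44 kb away in replicate 2 (fold 2.77). The nearest annotated coding end, of Zswim4, was 2021 bp from Mir24-2 and 2350 bp from Mir23a.

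Mirlet7i lies at chr10:122985640-122985724, 6.34 kb from the nearest coding end, that of Mon2, and both replicates covered the hairpin. The peaks were at chr10:122985366-122986605 in replicate 1, with fold 2.04 and −log10 q 0.658, and at chr10:122985476-122986556 in replicate 2, with fold 3.64 and −log10 q 3.83. The whole 1081 bp of the replicate 2 peak lay inside that of replicate 1, the most shared sequence of any locus between genes. The let-7 family is known to hold back growth and progenitor programmes, and 13 microRNA genes of the table share its seed, GAGGUAG. Only Mirlet7i among the 13 was acetylated, and the family was looked at because Mirlet7i was. Mirlet7a-1 stood 7.29 kb from a peak of replicate 1 and 7.25 kb from one of replicate 2, Mirlet7g 7.54 and 7.57 kb, and Mirlet7c-1, a gene of progenitor cells, 319 and 443 kb. The mature strands of family members differ in few bases, so a mark at Mirlet7i says nothing of the amount of let-7 made.

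The copies of the chromosome 8 cluster on chromosome 13 were not acetylated. Mir24-1, which makes the same miR-24-3p strand as Mir24-2, stood 60.4 kb from the nearest replicate 1 peak and 60.8 kb from that of replicate 2. Mir219a-2, the copy of Mir219a-1, stood 23.7 and 44.2 kb away, and Mir21c, which shares the seed of Mir21a, stood 407 and 283 kb away. Only seeds with an acetylated gene were looked at. Of these, 18 were shared with other microRNA genes, and at each of the 18 the other genes were not acetylated. With 4.07% of all microRNA genes acetylated, few further copies would be called at that share.

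Mir7671, at chr11:53763597-53763654 and 6.36 kb from a start of Irf1, an interferon regulatory factor gene that T cells also use, was the tallest acetylated microRNA gene when each was scored by the smaller of its folds. Replicate 1 gave fold 5.62 (−log10 q 6.5, peak at chr11:53763111-53764024) and replicate 2 gave fold 3.51 (−log10 q 3.35, peak at chr11:53762847-53763607). It ranked 125 of 12228 in replicate 1 and 948 of 9429 in replicate 2. Next by the smaller fold came Mir1934 at Mpdu1 with 2.71 and 2.70, and Mir6516 in Snhg20 with 2.81 and 2.67. Of these 3, Mir1934 lay at a coding start, and its peaks did not overlap within the window.

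The other 2 loci between genes had folds at or below the list medians in at least 1 replicate, as had Mirlet7i in replicate 1 and the Mir23a cluster in replicate 2. Mir8096, at chr1:85751948-85752074, lay under peaks of both replicates, with folds of 2.23 and 1.75 and −log10 q of 0.874 and 0.571. Mir101c stood 346 bp from a single peak of 38251 bp in replicate 1 (chr9:3000073-3038323) and 390 bp from one of 38153 bp in replicate 2 (chr9:3000127-3038279). Median peak widths were 618 bp and 562 bp in the 2 lists. That wide block had the lowest folds among the acetylated genes, 1.43 and 1.23, and yet −log10 q of 14.5 and 9.19. Mir101c was thus counted through the edge of a block unlike the other peaks described here. Peaks with a fold under 1.5 were more frequent on chromosomes 6, 9, 14 and 17, where they made up 22.1% of replicate 1 peaks and 29.1% of replicate 2 peaks, against 4.12% and 3.16% on the others. Their median −log10 q was 5.78 and 6.81 there, against 0.383 and 0.473 on the others, so fold and q are not on 1 scale across chromosomes. Of the 50 acetylated genes 7 lie on those 4 chromosomes, and without them 43 genes remained, with 9 between genes and 6 of the haematopoietic list.

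**Figure D2:**
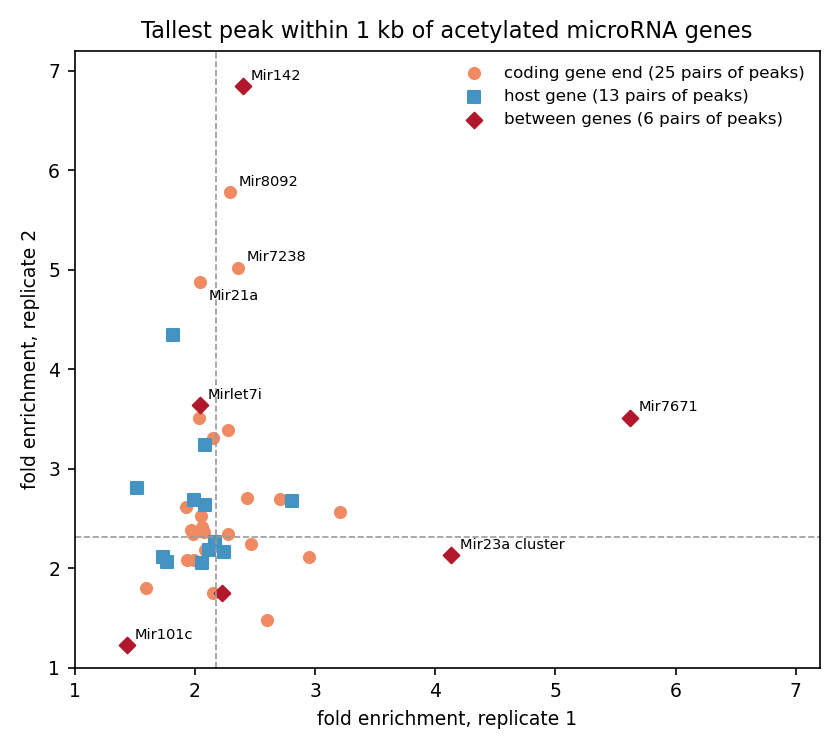
Fold enrichment of the tallest peak within 1 kb of each acetylated microRNA gene, replicate 1 on the x axis and replicate 2 on the y axis, 1 symbol per pair of peaks; dashed lines mark the median fold of all peaks in each replicate. Mir142 stands far higher in replicate 2 and the Mir23a cluster in replicate 1. Mir7671 and Mir142 are among the pairs above both medians.

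Across all 50 acetylated genes, 21 reached the median fold of all peaks in replicate 1 and 28 did so in replicate 2, so as a group they were of ordinary height. A fold of at least 4 in either replicate was seen at 11 genes, and 34 had the higher fold in replicate 2. A q of at most 0.05 was met by 14 genes in replicate 1, by 21 in replicate 2 and by 7 in both, which is 0.57% of microRNA genes, against 1.43% of all genes and 2.67% of coding genes. The 7 were Mir7671, Mir142, Mir142b, Mir6516, Mir1945, Mir7071 and Mir101c, the last through the wide block of low fold beside it.

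Haematopoietic microRNAs were read from a list of 87 genes in 6 roles, set beside 40 genes known from other tissues. Of the 87, 6 (6.9%) were acetylated, against 1 of 40 (2.5%) of the other tissues and 4.07% of all microRNA genes. Clustered genes share peaks, so loci were counted too. By locus the counts were 3 of 51, 1 of 24 and 44 of 943 (4.67%), in the same order, and the acetylated loci of both lists are few. The 6 were Mir142, Mir142b, Mir23a, Mir27a, Mir24-2 and Mir21a, and the gene of another tissue was Mir219a-1, a nerve microRNA whose gene stands at the promoter of the Polycomb gene Ring1, with folds of 2.06 and 2.42. By role, 2 of 11 genes of T cell development and receptor signalling and 4 of 25 of lymphocyte activation and inflammation were acetylated. None of 15 genes of the Mir17 family, 12 of cell cycle and death, 19 of stem and progenitor cells and 5 of myeloid, erythroid and megakaryocyte cells was.

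Mir21a, an abundant microRNA of activated and inflamed cells that promotes survival, met the rule without any base marked in both replicates within its window. It lies at chr11:86584067-86584158 near the 3′ end of Vmp1, an autophagy gene. The replicate 1 peak at chr11:86580713-86583134 stood 933 bp downstream, with fold 2.05 and −log10 q 0.717. The replicate 2 peak at chr11:86584927-86587825 stood 769 bp upstream, with fold 4.88 and −log10 q 7.33, and ranked 252 in its list. Replicate 1 had a second peak at chr11:86585927-86588102 (fold 2.16, −log10 q 0.798), 1.77 kb upstream, which did overlap that of replicate 2. Both replicates therefore marked the stretch upstream of Mir21a inside Vmp1, and the gene was counted through peaks at 933 and 769 bp.

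**Figure D3:**
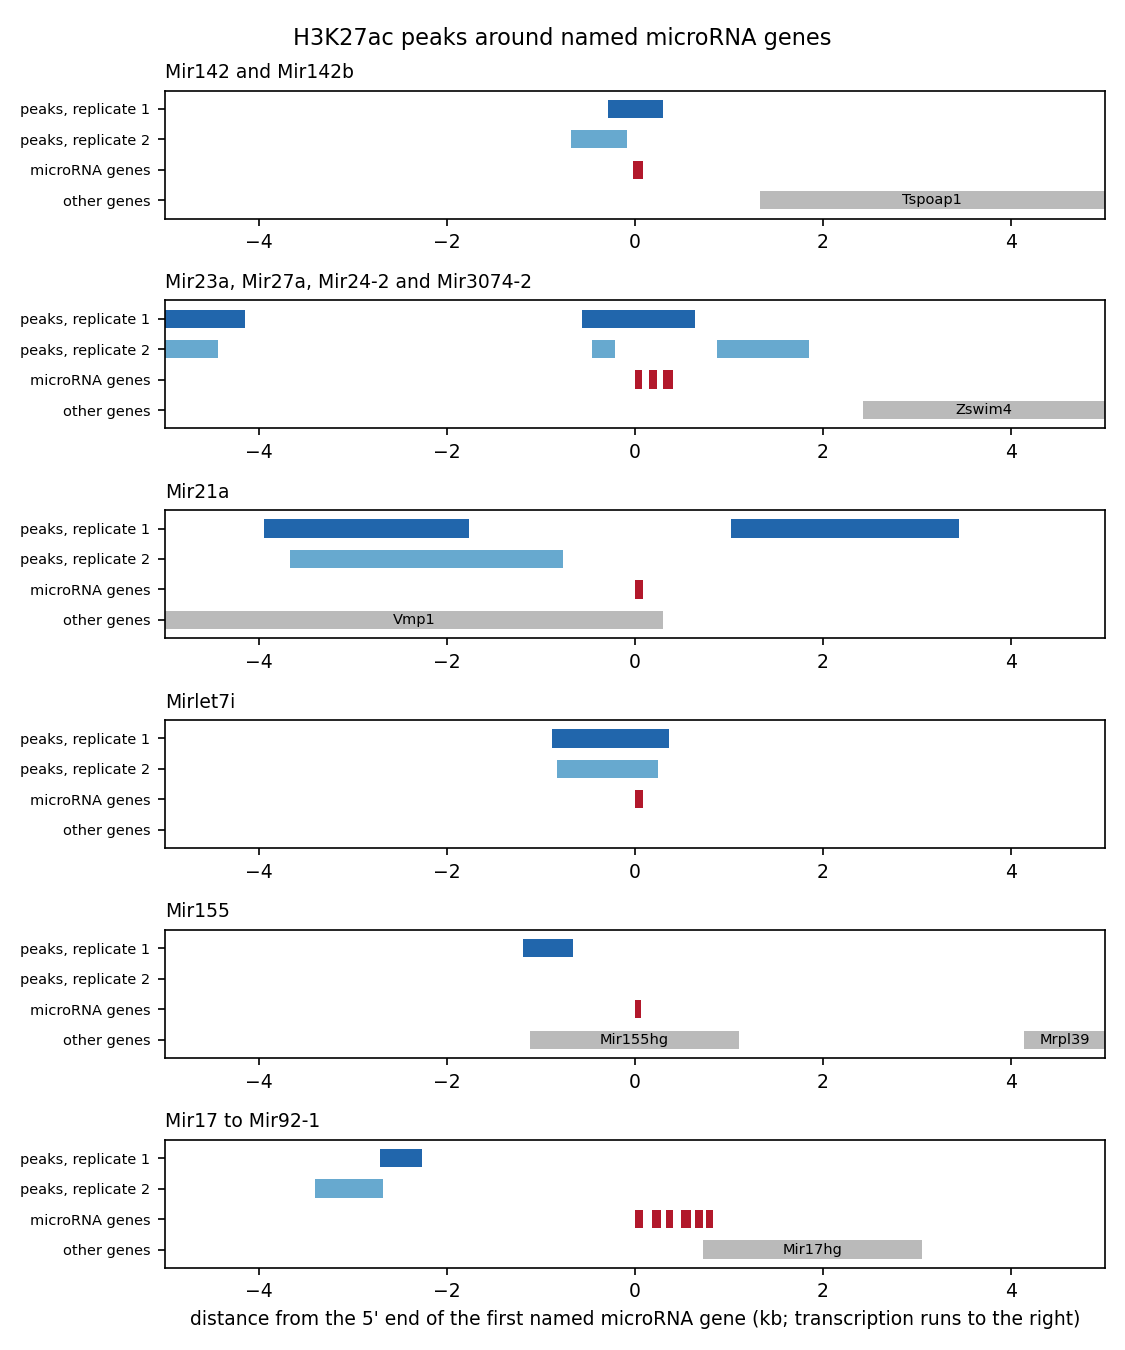
Peaks of replicate 1 (dark blue) and replicate 2 (light blue), microRNA genes (red) and other genes (grey) around 6 named loci; the x axis is distance in kb from the 5′ end of the first named microRNA gene, with transcription to the right. Both replicates meet upstream of Mir142 and over Mirlet7i, and at Mir155 the peak is from replicate 1 only.

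A peak of 1 replicate alone stood at 5 further genes of the list. Mir155, the microRNA of lymphocyte activation, had a replicate 1 peak 659 bp upstream at the start of its host Mir155hg, with fold 4.55 and −log10 q 4.86, and the nearest replicate 2 peak was 121 kb away. Mir148a had a replicate 2 peak 615 bp upstream, with fold 3.88 and −log10 q 8.11, and the nearest replicate 1 peak was 199 kb away. These 2 were tall peaks without a counterpart near by. Mir101a had a replicate 2 peak 18 bp upstream (fold 2.74), with replicate 1 at 8.92 kb, and Mir210, a hypoxia microRNA, lay under a replicate 1 peak (fold 2.12), with replicate 2 at 4.35 kb. Mir191 had a replicate 1 peak 584 bp upstream with fold 1.10, and replicate 2 was 10.006 kb away; Mir148a and Mir191 lie on chromosomes 6 and 9, where low folds can carry a small q.

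Within the role of proliferation, some clusters had the mark at a distance and none had it at the hairpins. Within 10 kb, 22 of 87 haematopoietic genes (25.3%) in 11 loci had a peak of each replicate, against 8 of 40 (20%) of other tissues and 13.0% of all microRNA genes; 16.4% of all genes and 26.2% of coding genes had one. By locus the counts were 11 of 51, against 134 of 943 (14.2%) for all microRNA loci. Of the 22 genes, 9 were of the Mir17 family, 5 of cell cycle and death, 5 of lymphocyte activation and 3 of T cell development. The 9 came only from the cluster of Mir17 to Mir92-1 and that of Mir106b, Mir93 and Mir25, whose members are not separate observations. No gene of stem and progenitor cells and none of the myeloid group was among them. Of the 8 genes of other tissues, 5 were the embryonic Mir302 cluster, which lies antisense inside Larp7, and from Mir302a the marked Larp7 end was 7.31 kb away in replicate 1 and 7.25 kb in replicate 2. The wider window thus also counts the ends of other genes.

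**Figure D4:**
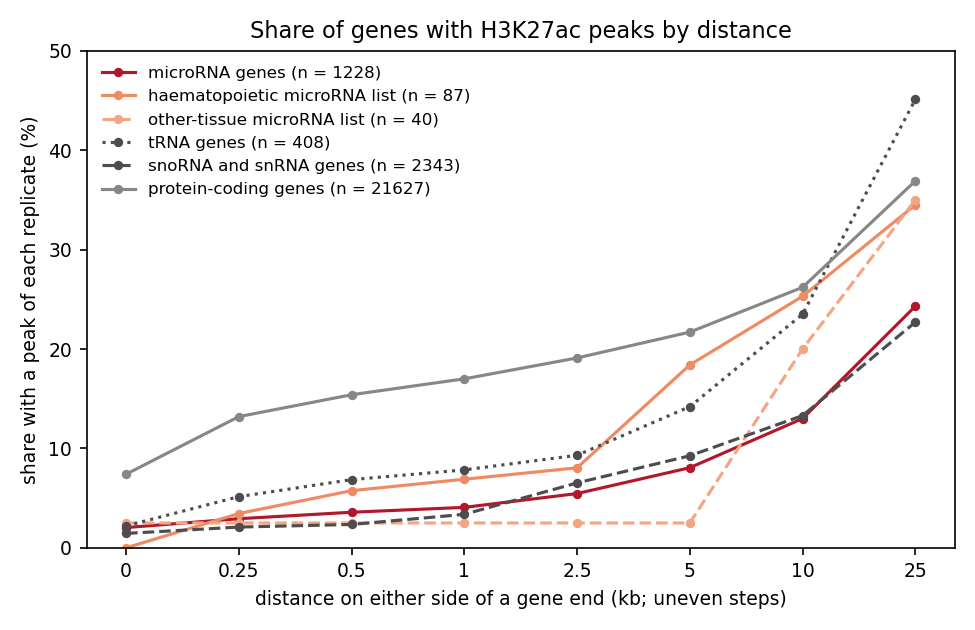
Share of genes with a peak of each replicate (y axis, %) against the distance allowed on either side of the gene ends (x axis, kb, uneven steps), for microRNA genes, the 2 microRNA lists and 3 other kinds of gene. The haematopoietic list stands at 6.9% at 1 kb and 25.3% at 10 kb, against 4.07% and 13.0% for all microRNA genes.

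The Mir17 to Mir92-1 cluster, which is known to drive proliferation and survival of lymphoid progenitors, had its nearest marks upstream of all 6 hairpins. The replicate 1 peak lay 2.26 kb upstream of Mir17 (chr14:115040962-115041408, fold 1.91) and the replicate 2 peak 2.68 kb upstream (chr14:115040267-115040989, fold 2.23). The 2 peaks met over a short stretch, and both were of low fold. The related Mir106b, Mir93 and Mir25 lie inside Mcm7, a subunit of the replicative helicase, and from Mir106b the marked Mcm7 start was 5.58 kb upstream in replicate 1 (fold 2.37) and 5.35 kb in replicate 2 (fold 2.13). The X-linked cluster of Mir106a to Mir363 had a peak near it in replicate 1 only, 1.64 kb upstream of Mir106a (fold 2.15), with replicate 2 at 170 kb.

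Of the 5 genes of cell cycle and death with a peak of each replicate within 10 kb, Mir15b, Mir16-2 and Mir26b lie in coding hosts with both peaks at the host's end upstream of the hairpin. Mir15b and Mir16-2, which hold back cyclins and Bcl2, lie in Smc4, a condensin gene, and from Mir15b the marked end was 2.97 kb upstream in replicate 1 (fold 2.16) and 2.46 kb in replicate 2 (fold 2.53). Mir26b lies in Ctdsp1, a phosphatase gene, whose marked start was 1.98 kb upstream in replicate 1 (fold 2.07) and 2.11 kb in replicate 2 (fold 2.57). Mir425 had a replicate 1 peak 1.04 kb upstream and a replicate 2 peak 9.54 kb downstream, which are not at the same place. Mir101a, the last of the 5, had its nearest peaks at 8.92 kb in replicate 1 and 18 bp in replicate 2. Outside the 5, Mir101b, in a coding host too, stood 45.3 kb from the nearest replicate 1 peak and 144 kb from that of replicate 2. In Smc4 and Ctdsp1 the peak lies at the coding gene's end, and a promoter of the microRNA's own cannot be told apart from it.

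In the role of T cell development and receptor signalling, Mir142 and Mir142b were the only acetylated genes of 11, and with Mir150 they were the 3 with a peak of each replicate within 10 kb. Mir181a-1, which sets the sensitivity of the T-cell receptor, stood 65.8 kb from the nearest replicate 1 peak and 64.6 kb from that of replicate 2, and its copy Mir181a-2 stood 28.4 and 28.3 kb away. Mir181c had a replicate 1 peak 2.54 kb away (fold 1.64) and the nearest of replicate 2 stood 18.03 kb away. Mir146, a brake on NF-kB signalling, stood 59.3 and 20.8 kb away, and the myeloid Mir223 stood 367 and 274 kb away. The median distance to sequence marked in both replicates was 77.5 kb over the haematopoietic list, 147 kb over the list of other tissues and 130 kb over all microRNA genes. In peak lists of unknown depth, a distant or missing peak does not show that a microRNA was not transcribed.

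**Figure D5:**
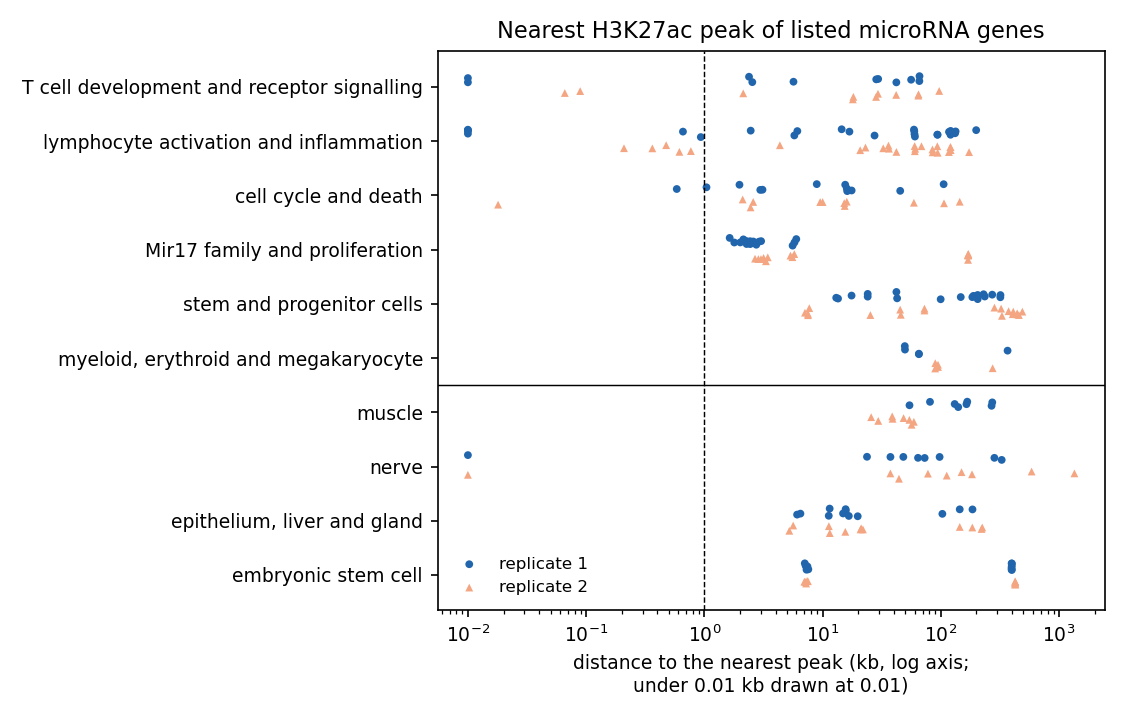
Distance from each listed microRNA gene to the nearest peak of replicate 1 (circles) and replicate 2 (triangles), in kb on a log axis, by role; the dashed line marks 1 kb and the solid line divides haematopoietic roles (above) from other tissues. Genes with both of their points left of the dashed line occur in the roles of T cell development, lymphocyte activation and nerve.

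No microRNA gene in the largest clusters or on the X chromosome met the rule. Of 843 loci with 1 gene, 38 (4.51%) were acetylated, and of 90 loci with 2 to 4 genes, 6 (6.67%) were. None of 10 loci with 5 or more genes was, but few or none of 10 would be called at the shares of the smaller loci. The 10 loci held 184 microRNA genes, which are clustered and not separate observations. They included the block of 72 genes from Mir466m to Mir669h on chromosome 2. Others were the imprinted cluster from Mir379 to Mir3072 on chromosome 12 with 39, and the embryonic cluster from Mir290a to Mir295 with 9. None of the 10 had a peak of either replicate within 1 kb of a member. On X, 0 of 92 microRNA genes were acetylated, against 53 of 966 coding genes there (5.49%). Of the 92, only 6 stood at coding ends, with 47 in hosts and 39 between genes. Those last classes had shares of 1.55% and 4.2% over all chromosomes, so few genes would be called at such shares. Acetylated microRNA genes lay on 16 chromosomes.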

How the data were processed

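H3K27ac-marked chromatin was profiled in 2 replicates of 1 group; per the labels' protocols, chromatin was first pulled down with an H3 antibody and, after adapter ligation, with an H3K27ac antibody. Per the submitters' processing notes, the tools were Bowtie2 and MACS 1.4.2, with build mm10; the peak lists have the 9-column broad layout with a q per peak, which is that of MACS2 and not of the version named. Which version made the fold and q values is therefore uncertain. Which threshold was set, and whether the input was used in calling, is not given in the sources used here. Each deposited peak has a score, a fold enrichment (ratio) and −log10 of p and of q, all the authors' values per sample; the score was not used. They describe, rank or filter peaks within a list. The lists hold no read counts, so depth per sample is unknown and no interval can be given.

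Peaks were intersected with genes of the RefSeq table (GRCm38.p6, the assembly of mm10), with an overlap of at least 1 bp, in Python 3.11.15 with pandas 2.3.3 and numpy 2.4.6; figures were drawn with matplotlib 3.10.9. The overlap code was tested on simulated intervals. A gene was acetylated with a peak of each replicate within 1 kb. Classes were taken in order: coding gene end within 1 kb, host gene, between genes. Transcript starts came from the promoter table. With 1 group no statistical test was run; counts stand beside the share over all genes, coding genes and other kinds of RNA gene. The members and lists were chosen with earlier results of these data known. Named genes were the haematopoietic members with a peak, the 6 loci per class with most shared coverage, all acetylated loci between genes, acetylated members of the other-tissue list and the 3 tallest in both replicates. A total of 12 other settings were tried.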

Additional observations from a re-analysis of the deposited data

How the results depend on the processing

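No paired analysis was possible because there was 1 group and no test. The 50 acetylated genes, 44 loci, 27 genes at coding ends, 13 in hosts, 10 between genes, 6 haematopoietic genes and 150 hosts with acetylated ends (always in this order) moved by over 1.5 times as follows; the cause was not tested beyond the settings' own construction. A peak in either replicate gave 95, 88, 49 and 35, with 11 haematopoietic genes and 278 hosts. Peaks with q of at most 0.05 gave 7, 6, 2, 1, 4, 2 and 22, and q of at most 1e-05 gave 1, 1, 0, 0, 1, 0 and 7. The microRNA gene left at 1e-05 was Mir101c, beside its wide block of low fold. Windows of 0 bp gave 25, 23, 16, 6, 3, 0 and 69, and windows of 10 kb gave 160, 134, 45, 87, 28, 22 and 248. A 2.5 kb window moved the genes in hosts to 25, and a coding-end limit of 2 kb moved them to 6. With 1 replicate left out, the counts ranged from 68 to 77 genes, 61 to 71 loci, 38 to 38 at coding ends, 20 to 28 in hosts, 10 to 11 between genes, 8 to 9 haematopoietic genes and 203 to 225 hosts. The remaining settings, 34 values in all with those within 1.5 times, were overlap of the peaks of both replicates, leaving out chromosomes 6, 9, 14 and 17, and joining loci within 50 kb. Only 27.3% of replicate 1 peaks and 41.1% of replicate 2 peaks had a q of at most 0.05; without read counts, a missing peak in 1 replicate cannot be told apart from low depth.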
